A study of Mus musculus with 16 samples.

Results

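The transcript response shared by 2 progestins in the aorta of ovariectomized ApoE-deficient mice was measured over all 16 arrays of the study. It is the average of 2 differences, medroxyprogesterone acetate (MPA) minus its placebo group and norethisterone acetate (NET-A) minus its placebo group, so that 8 treated arrays stood against 8 placebo arrays. All 4 groups were female C57BL/6 mice that lack apolipoprotein E, a lipid carrier whose loss makes mice prone to atherosclerosis. All had their ovaries removed at 4 to 5 weeks of age and ate a high-fat Western-type diet. A subcutaneous pellet with hormone or placebo was placed 2 weeks after surgery and was built to release for 90 days; aortas were collected after 78 to 90 days. Each group held 4 samples, and the tissue ran from behind the arch to near the renal branches. The placebo groups, marked M and N, were assigned to the progestin with the same initial and the same slides. Doses are not given in the labels, so matched dosing of the progestins is unknown. The labels do not say that each sample was a separate animal, so the p-values rest on the spread among these arrays alone, which may be technical. Loss of ovarian hormones and of Apoe is common to treated and placebo mice, so no difference given here compares mice with and without either. Whether the responses depend on these losses was not tested.

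Progestins act through the progesterone receptor, a nuclear receptor that binds DNA and switches target genes on or off. MPA, derived from progesterone, also binds the glucocorticoid receptor, while NET-A, derived from testosterone, has androgenic activity. The receptors for progesterone, glucocorticoid and mineralocorticoid bind closely related DNA elements. A diseased aorta holds smooth muscle, endothelium, fibroblasts, fat cells, macrophages that become foam cells, and blood that was not washed out.

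A level below is the log2 signal of a gene's probe minus the 75th percentile of its array, so a level of 0 is the signal at that percentile. A gene was tested when its probe was well above background on at least 4 of the 8 arrays of each experiment. This kept 15057 of 28030 genes with a difference in both experiments. At the edge of that rule, 481 genes had exactly 4 such arrays in the dimmer experiment and a median level of -3.35, and 505 genes just outside had 3 and a median level of -3.64. Their median absolute shared differences were both 0.221 log2 units, against 0.108 over all genes tested. The share of spots well above background was 46.3% (MPA replicate 2) to 60.6% in the MPA experiment and 62.3% to 78.5% for NET-A and its placebo. Within groups, pairs of arrays correlated by 0.954 to 0.988 over genes. Apoe itself gave levels of -0.02 to 0.95 and was above background on all 16 arrays; whether its probe lies in the disrupted part of the gene was not determined, so it checks no label. The smooth muscle markers Myh11, Acta2, Cnn1 and Tagln and the endothelial markers Pecam1, Cdh5, Tie1 and Vwf were above background on all 16 arrays. On both slides of the MPA experiment the MPA arrays sat at positions 1 and 2 and the placebo arrays at 3 and 4, so position and treatment cannot be told apart there. In the NET-A experiment the placebo arrays sat at positions 1 and 3 and the NET-A arrays at 2, 3 and 4, so only position 3 held both groups.

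Over both progestins 4 genes rose: S100a8 and S100a9, which encode the subunits of calprotectin and are abundant in neutrophils, Nfe2, a transcription factor of megakaryocytes and red cell precursors, and Alox12, the arachidonate lipoxygenase of platelets. They were 0.0266% of the 15057 genes tested (limma, slide as a block, Benjamini-Hochberg adjusted p under 0.05 and the same direction in both experiments). By the same test 0 genes (0%) fell. At an adjusted p under 0.1 the counts were 9 higher (0.0598%) and 3 lower (0.0199%). At an unadjusted p under 0.05, 1134 genes (7.53%) passed, of which 489 were higher in both experiments (3.25%) and 560 lower in both (3.72%).

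Calprotectin's genes stood first. Their promoter windows are shown because both genes rose and lie on the same chromosome, and that of Alox12 because it holds a steroid receptor hexamer; no window was read for Nfe2. Each window is the 250 bases before the start site on the gene's strand, from RefSeq on GRCm38.p6, with matches to searched motifs in capitals. The windows are chr3:90668821-90669070 on the plus strand for S100a8, chr3:90695722-90695971 on the minus strand for S100a9 and chr11:70255371-70255620 on the minus strand for Alox12.
S100a8: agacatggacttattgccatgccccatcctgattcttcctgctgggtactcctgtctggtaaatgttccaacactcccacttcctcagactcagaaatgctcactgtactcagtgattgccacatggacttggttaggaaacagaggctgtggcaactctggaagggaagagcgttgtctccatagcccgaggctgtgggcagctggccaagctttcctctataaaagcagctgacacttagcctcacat
S100a9: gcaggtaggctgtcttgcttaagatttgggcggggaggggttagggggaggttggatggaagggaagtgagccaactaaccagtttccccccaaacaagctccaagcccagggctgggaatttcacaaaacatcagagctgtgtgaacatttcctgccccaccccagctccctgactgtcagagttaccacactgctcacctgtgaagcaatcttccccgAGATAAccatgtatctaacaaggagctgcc
Alox12: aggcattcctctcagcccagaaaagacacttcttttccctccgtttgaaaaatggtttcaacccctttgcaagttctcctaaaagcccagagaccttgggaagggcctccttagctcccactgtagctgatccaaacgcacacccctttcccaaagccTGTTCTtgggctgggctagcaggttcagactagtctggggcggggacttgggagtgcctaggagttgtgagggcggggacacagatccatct
The motifs searched on both strands were the steroid receptor hexamer TGTTCT, the full steroid response element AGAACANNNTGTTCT, which holds that hexamer on each strand, and the GATA site AGATAA. The window of S100a9 held 1 GATA match, the window of Alox12 held 1 hexamer, and the window of S100a8 held none of the 3 motifs. Of all 32851 windows of this length, 16.1% held the hexamer, 0.00913% the full element and 9.99% a GATA site. Among the 15 higher genes described below a window was read for 12, of which 2 held the hexamer, 0 the full element and 2 a GATA site. Among the 15 lower genes a window was read for 11, with 1, 0 and 1. A match describes these letters and is not evidence of binding. With the full element in only 0.00913% of all windows, its absence from so few windows says nothing about these genes.

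S100a8 (probe at chromosome 3, 90473778 to 90473837, mm9) had levels of -1.90, -2.33, 0.26 and -0.12 on the placebo arrays of the MPA experiment and 1.11, 0.46, 2.75 and 2.33 on the MPA arrays, replicates 1 to 4. In the NET-A experiment the placebo levels were -0.58, -0.14, -0.32 and 0.21 and the NET-A levels 1.54, 0.20, -0.04 and 1.22. All MPA arrays lay above their placebo arrays, whereas NET-A replicates 2 and 3 lay below the highest placebo array. Its shared difference was 1.81 ± 0.23 log2 units (SE; 3.51-fold; limma adjusted p = 0.0288), from 2.69 ± 0.32 under MPA and 0.94 ± 0.32 under NET-A.

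S100a9 (chromosome 3, 90496585 to 90496644, mm9) was the partner gene. Its placebo levels in the MPA experiment were 2.93, 2.24, 4.13 and 4.20 and its MPA levels 5.73, 5.01, 6.80 and 6.20. The corresponding values in the NET-A experiment were 1.18, 1.74, 1.5 and 1.95 for placebo and 3.82, 2.20, 2.28 and 3.04 for NET-A. Treated and placebo arrays did not overlap in either experiment, although the gap was narrow in the NET-A experiment. The shared difference was 1.90 ± 0.24 (3.73-fold; limma adjusted p = 0.0288), from 2.56 ± 0.34 under MPA and 1.24 ± 0.34 under NET-A.

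Nfe2 (chromosome 15, 103078838 to 103078897, mm9) was dim but above background on all arrays. Its levels were -2.44, -2.90, -1.61 and -2.38 for placebo and -1.68, -1.40, -1.12 and -1.29 for MPA. They were -3.44, -3.09, -3.15 and -3.08 for the other placebo group and -2.52, -2.07, -1.01 and -1.32 for NET-A. The NET-A groups were apart, and in the MPA experiment placebo replicate 3 reached into the range of the MPA arrays. Nfe2 rose by 1.21 ± 0.17 on average (2.31-fold; limma adjusted p = 0.0385), with 0.96 ± 0.24 under MPA and 1.46 ± 0.24 under NET-A.

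Alox12 (chromosome 11, 70055715 to 70055774, mm9) was apart in both experiments. The MPA experiment gave 0.15, 0.20, 0.79 and 0.12 for placebo and 1.06, 0.89, 1.64 and 1.21 for MPA. The NET-A experiment gave -2.01, -2.30, -1.82 and -1.54 for placebo and -1.09, -0.43, 0.29 and -0.17 for NET-A. In the MPA experiment the gap between the groups was small, 0.79 against 0.89. The shared difference was 1.23 ± 0.17 (2.34-fold; limma adjusted p = 0.0385), from 0.89 ± 0.24 under MPA and 1.56 ± 0.24 under NET-A.

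**Figure D1:**
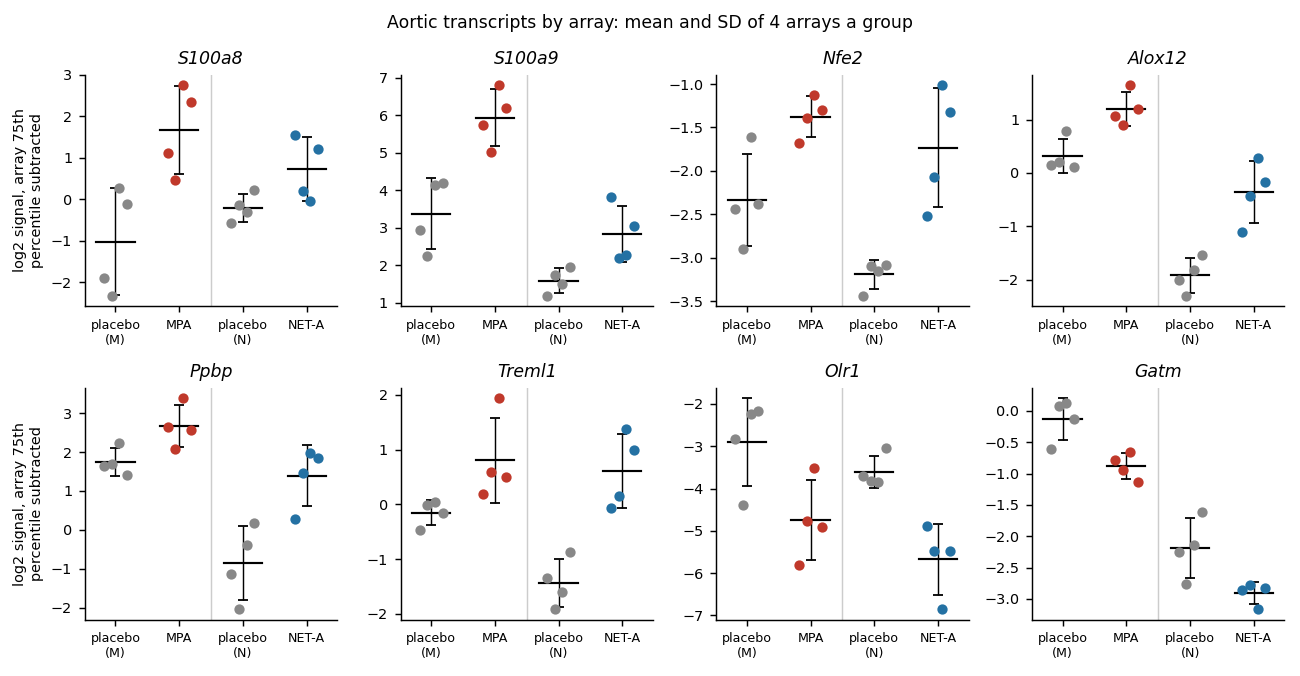
Levels of 8 genes of the shared response (log2 signal minus the array's 75th percentile, vertical axis) on each array, in the 4 groups along the horizontal axis. Points are arrays, long bars are group means and whiskers are SD of 4 arrays; S100a9, Alox12, Treml1 and Gatm show no overlap in either experiment.

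Each of the 4 genes was higher on all 5 slides, and each kept its direction in all 33 alternatives run. The ranges were 1.47 to 1.95 for S100a8, 1.67 to 2.02 for S100a9, 0.77 to 1.30 for Nfe2 and 0.75 to 1.40 for Alox12. Slides and alternatives use the same arrays that chose the genes, so this agreement is not separate support. Slides 3 and 4 each held 1 placebo and 1 NET-A array. Leaving out either array of such a slide gives the same fit, so the 33 alternatives are not all distinct. In the higher direction limma called 0 genes with the slide left out of the fit or as a random block, with normexp background correction, or with no filter on dim probes (smallest adjusted p 0.0514 to 0.0696). The same held without any 1 of the 8 arrays of the MPA experiment, and in the NET-A experiment without placebo replicate 3 or NET-A replicate 4.

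Asked of each progestin alone in the same fit, 2 genes passed for MPA (0.0133%), S100a8 and S100a9, with limma adjusted p-values of 0.0342 and 0.0476. For NET-A 0 genes (0%) passed, the smallest adjusted p being 0.139. At an unadjusted p under 0.05 the counts were 1413 for MPA (9.38%) and 922 for NET-A (6.12%). The stricter question, whether a gene passed in both experiments by its larger p, gave 0 genes (0%) after adjustment. Without adjustment both p-values were under 0.05 for 45 genes higher in both (0.299%), 28 lower in both (0.186%) and 75 with opposite directions (0.498%). All 4 arrays of each treated group lay above their placebo arrays in both experiments for 8 genes (0.0531%), below in both for 6 (0.0398%), and opposite ways for 14 (0.093%).

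Over all genes the direction was the same in both experiments for 7464 genes (49.6%), 3468 higher (23%) and 3996 lower (26.5%), and opposite for 7593 (50.4%). Pearson's r between the responses to MPA and NET-A was 0.0475 over genes and Spearman's rho was 0.00528; genes are not independent replicates. Under normexp background correction Pearson's r was -0.424. A direct test of the MPA response minus the NET-A response called 0 genes (0%), with a smallest adjusted p of 0.257, and 1176 genes (7.81%) at an unadjusted p under 0.05.

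**Figure D2:**
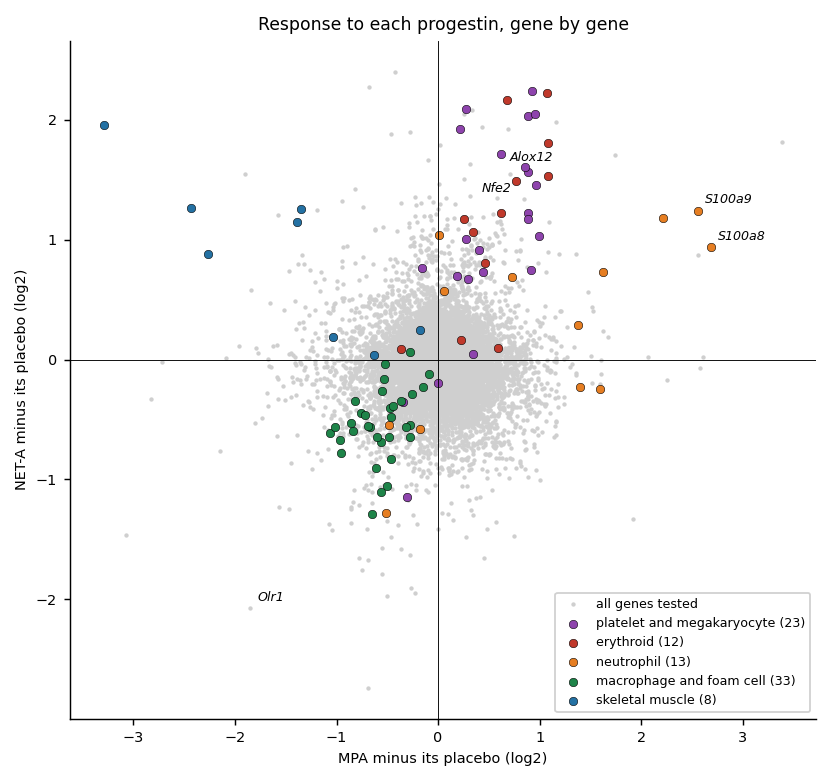
Each point is 1 gene, with its MPA minus placebo difference (log2, horizontal) and its NET-A minus placebo difference (log2, vertical). Colours mark 5 gene lists with the number of genes tested; platelet and red cell genes lie mostly to the upper right, macrophage genes to the lower left and skeletal muscle genes to the upper left.

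The difference between the progestins was estimated for each called gene. For S100a8 the MPA response exceeded the NET-A response by 1.75 log2 units, with a 95% confidence interval of 0.76 to 2.74, and for S100a9 by 1.32 (0.28 to 2.36). For Nfe2 the difference was -0.50 (-1.22 to 0.23) and for Alox12 -0.68 (-1.42 to 0.06). No adjusted p of these 4 differences was under 0.05; they were 0.351, 0.572, 0.768 and 0.676. The calprotectin genes thus had the larger estimate under MPA and the other pair under NET-A, with intervals that reach 0 for Nfe2 and Alox12.

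Among the 15 same-direction genes with the smallest p in the higher direction, 11 did not pass the test. Of those 11, 5 stand on the platelet or neutrophil lists, which hold 36 of the 15057 genes tested (0.239%). The lists were chosen with earlier results of these data known, so this count is a description and supports nothing. All 15 were higher on all 5 slides and 13 had an unadjusted p under 0.05 in each experiment; these counts come from the values that chose the genes and support nothing. Beside the 4 called genes they included Slc26a4, Retnlg, Pls1, Ppbp, Car2, Treml1, Kcns3, Aldh1a1, Hyal1 and Gp9, with limma adjusted p-values up to 0.121 and shared differences of 0.51 to 1.72.

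Ppbp, the platelet basic protein from which chemokines are cut, was at 1.63, 1.70, 2.23 and 1.41 for placebo and 2.66, 2.08, 3.38 and 2.56 under MPA. NET-A arrays stood at 0.27, 1.45, 1.99 and 1.85 and their placebo arrays at -1.13, -2.04, -0.40 and 0.17. Only MPA replicate 2 reached into the range of its placebo arrays. The shared difference was 1.58 ± 0.27, with 0.93 under MPA and 2.24 under NET-A.

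Treml1, a receptor stored in platelet granules, was apart in both experiments at 1.5 ± 0.26, with 0.95 under MPA and 2.05 under NET-A. Gp9, a subunit of the platelet receptor for von Willebrand factor, was at 1.46 ± 0.28, with 0.89 and 2.04. Nrgn, a calmodulin-binding protein also present in platelets, was apart in both at 1.01 ± 0.19, with 0.99 and 1.04. These platelet genes had similar or larger estimates under NET-A.

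Retnlg, a resistin-like protein of neutrophils, differed by 1.70 ± 0.27, with 2.21 under MPA and 1.19 under NET-A. Like S100a8 it was apart under MPA and overlapped under NET-A, where placebo replicate 4 stood at -1.89 and the other placebo arrays between -3.47 and -3.23. Car2, a carbonic anhydrase abundant in red cells, differed by 1.72 ± 0.29 over 15 arrays, with 1.74 under MPA and 1.71 under NET-A. Its limma adjusted p was 0.101. With spots flagged as outliers kept, its shared difference was 1.445 (limma adjusted p = 0.399).

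The rest stood on none of these lists. Slc26a4, an anion exchanger, differed by 0.91 ± 0.14, with 0.82 under MPA and 1.01 under NET-A. Hyal1, a lysosomal enzyme that cuts hyaluronan, differed by 0.51 ± 0.10, with 0.62 and 0.41. Kcns3, a modulatory potassium channel subunit, differed by 0.55 ± 0.10, and Aldh1a1, which makes retinoic acid, by 0.64 ± 0.12. Aldh1a1 was uneven, at 0.19 under MPA and 1.09 under NET-A. Pls1, an actin-bundling plastin, was uneven too, at 0.44 under MPA and 1.94 under NET-A.

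**Figure D3:**
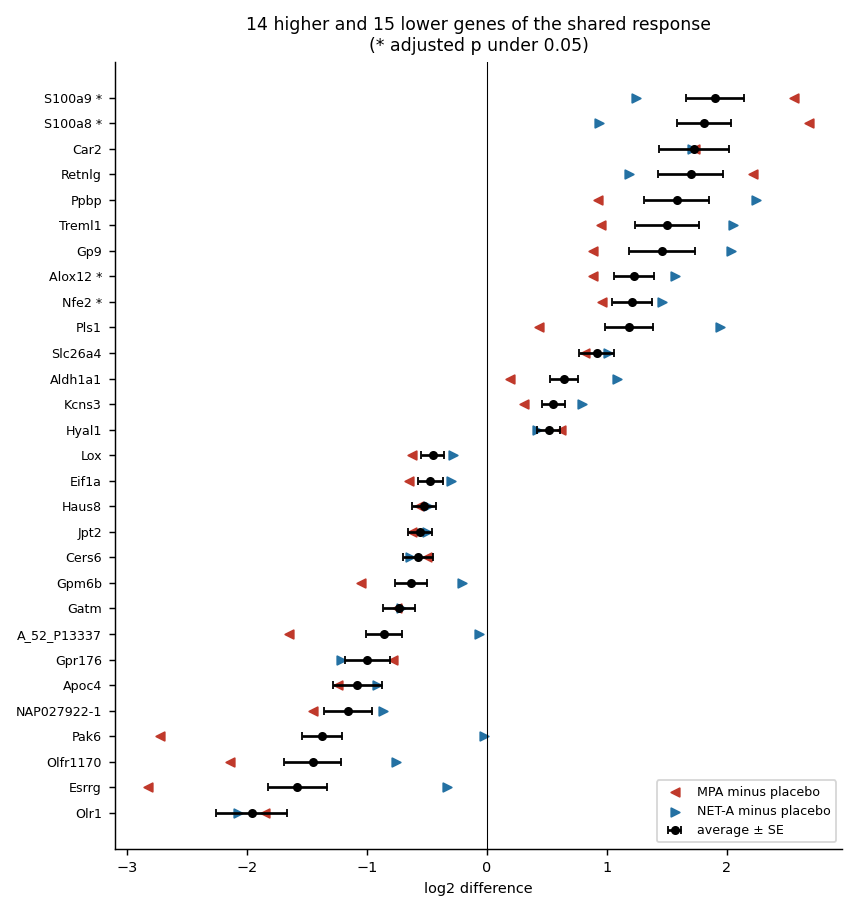
Shared log2 difference (black point, bar ± SE) of 14 higher and 15 lower genes with the smallest p, with the MPA (red) and NET-A (blue) differences beside it. Stars mark the 4 genes that passed; near-coinciding triangles, as for Olr1, Gatm and Car2, are genes with similar responses to both progestins.

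The lower genes were led by Olr1, which encodes a receptor for oxidized low-density lipoprotein. No gene in this direction passed. Olr1 was at -2.83, -4.38, -2.23 and -2.16 for placebo and -5.82, -4.76, -3.50 and -4.90 under MPA. In the NET-A experiment it was at -3.70, -3.82, -3.84 and -3.05 for placebo and -4.88, -5.49, -6.86 and -5.49 under NET-A. The groups were apart in the NET-A experiment and overlapped in the MPA experiment. It was near background: the probe was well above it on 3 placebo and 1 MPA array, and on 4 placebo and 2 NET-A arrays. The shared difference was -1.96 ± 0.29 (limma adjusted p = 0.0662), with -1.85 under MPA and -2.07 under NET-A. It ranged from -2.35 to -0.22 over the alternatives, and passed in 4 of 32.

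Gatm, the first enzyme of creatine synthesis, was apart in both experiments. Its levels were -0.60, 0.08, 0.12 and -0.13 for placebo, -0.79, -0.94, -0.66 and -1.14 under MPA, -2.25, -2.77, -2.14 and -1.61 for the other placebo group, and -2.87, -2.78, -3.16 and -2.82 under NET-A. The difference was nearly equal, -0.75 under MPA and -0.72 under NET-A, and -0.73 ± 0.13 on average. The gap in the NET-A experiment was narrow, -2.77 against -2.78.

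Haus8, a subunit of the spindle complex augmin, was apart in both at -0.53 ± 0.10. Apoc4, an apolipoprotein gene of the cluster that holds Apoe, was apart in both at -1.08 ± 0.21. Apoc4 was well above background on 4 placebo and 2 MPA arrays and on 4 placebo and 3 NET-A arrays. Chl1, a neural adhesion molecule, and Zfp469, a zinc finger gene that the array calls Gm22, were apart in both at -1.36 ± 0.31 and -0.53 ± 0.12.

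Of the other lower genes, Jpt2 (on the array as Hn1l) differed by -0.56 ± 0.10, and Gpr176, an orphan receptor, by -1.0 ± 0.19. Cers6, a ceramide synthase that the array calls Lass6, differed by -0.57 ± 0.13, with -0.50 under MPA and -0.64 under NET-A. The array feature NAP027922-1, which has no gene name here, differed by -1.16 ± 0.20. Lox, the enzyme that crosslinks collagen and elastin, differed by -0.45 ± 0.10, with -0.62 under MPA, where it was apart, and -0.28 under NET-A, where it was not. Gpm6b, a membrane glycoprotein, and Eif1a, a translation initiation factor, were also lower mainly under MPA, at -1.05 and -0.65 against -0.21 and -0.30.

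Some of the smallest p-values came from genes with missing arrays and a small difference under NET-A. Pak6, a protein kinase, was measured on 11 arrays and differed by -2.72 under MPA and -0.02 under NET-A. In the MPA experiment it was measured on 1 placebo and 2 MPA arrays. Of these only placebo replicate 3 and MPA replicate 3 shared a slide, so with slide as a block the -2.72 is 1 array against 1. Esrrg, an orphan nuclear receptor, rested on 12 arrays at -2.83 under MPA and -0.33 under NET-A. Probe A_52_P13337 rested on 14 arrays at -1.64 and -0.07. Olfr1170, an olfactory receptor, rested on 13 arrays at -2.14 and -0.76. Rexo4, Zfp33b, Yipf7 and BC001981 differed by 2.61, 1.16, -1.8 and 1.6 under MPA and by 0.02, 0.01, 0.10 and -0.12 under NET-A. BC001981 alone of these had all 16 arrays. The difference between the progestins had a limma adjusted p of 0.276 for Pak6 and of 0.349 for Rexo4, Zfp33b, Yipf7 and BC001981.

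Platelet genes had the largest median shared difference of the 35 lists, except where only genes above background on all arrays were kept (0.83, against 1.18 for neutrophil genes). Of 23 platelet and megakaryocyte genes tested, 19 were higher in both experiments, against 23% of all genes, and 16 of those had an unadjusted p under 0.05, against 3.25% of all genes. In both single comparisons 9 passed that threshold, against 0.299% of all genes. The platelet list holds 2 of the called genes, Nfe2 and Alox12. This list and those below were chosen with earlier results of these data known. Their counts beside the shares of all genes are therefore descriptions and support nothing. The median shared difference was 1.01, with 0.44 under MPA and 1.04 under NET-A, against a median of -0.01 over all genes. Slc6a4, the serotonin transporter that loads platelets, differed by 1.23 ± 0.25, and Gp1ba, which binds von Willebrand factor, by 1.17 ± 0.30. Itga2b, the platelet fibrinogen receptor subunit, differed by 1.07 ± 0.32, nearly all of it under NET-A (0.22 and 1.93). Thbs1, a platelet granule and matrix protein, was an exception at -0.73 ± 0.22, and Pf4, a platelet chemokine, differed by only 0.44 ± 0.20. In bulk tissue a change in the number of cells of a type and a change in RNA per cell cannot be told apart.

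The mean level of the platelet list, as a deviation from the placebo mean, was -0.03, 0.07, 0.23 and -0.27 on placebo arrays and 0.47, 0.09, 1.1 and 0.32 on MPA arrays. For NET-A it was 0.41, 0.95, 1.53 and 1.28 against -0.01, -0.45, -0.07 and 0.52. A single array overlapped in each experiment: MPA replicate 2 at 0.09 lay below placebo replicate 3, and NET-A replicate 1 at 0.41 lay below placebo replicate 4. The median of the list was 0.61 with normexp, and 0.78 without either array of slide 4, placebo replicate 2 or NET-A replicate 3.

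Most genes of the erythroid list were higher too. Of 12 genes tested 11 were higher in both, against 23% of all genes, and 9 had an unadjusted p under 0.05, against 3.25%; the median was 0.82, with 0.60 under MPA and 1.2 under NET-A. Ahsp, the chaperone of alpha globin, differed by 1.65 ± 0.37, and Slc4a1, the red cell anion exchanger, by 1.44 ± 0.35. Alpha globin itself (Hba-a1 and Hba-a2) differed by 0.34 ± 0.17 and 0.19 ± 0.17. The list level of NET-A arrays (0.65, 0.78, 1.65 and 1.54) lay above all their placebo arrays (-0.54 to 0.42), while MPA arrays (0.30 to 0.96) overlapped theirs (-0.56 to 0.86).

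Neutrophil genes were less uniform. Of 13 tested, 8 were higher in both, 3 lower in both and 2 opposite, against 23%, 26.5% and 50.4% of all genes. The median was 0.68 (1.38 under MPA and 0.58 under NET-A), and ran from 0.50 with normexp to 1.18 where genes had to be above background on all arrays. Pglyrp1, a bactericidal granule protein, differed by 0.83 ± 0.20, with 1.38 under MPA and 0.29 under NET-A. Csf3r, the receptor for granulocyte colony-stimulating factor, was at 1.39 under MPA and -0.23 under NET-A. Lcn2 and Itgam, which other cells also express, were lower in both. List levels ran from -0.73 to 0.88 on placebo and 0.67 to 1.51 on MPA arrays, and from -0.46 to 0.66 on placebo and -0.13 to 0.64 on NET-A arrays, and so overlapped in both experiments. The mean level of the neutrophil list, treated minus placebo, differed by 1.3 and 0.75 on slides 1 and 2, of the MPA experiment. In the NET-A experiment it differed by 1.1 on slide 3, with 1 array a group, and by 0.006 and 0.033 on slides 4 and 5. The granule gene Ngp was well above background on 11 arrays and was not tested. The part that blood in the samples had in the 4 called genes was not tested.

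**Figure D4:**
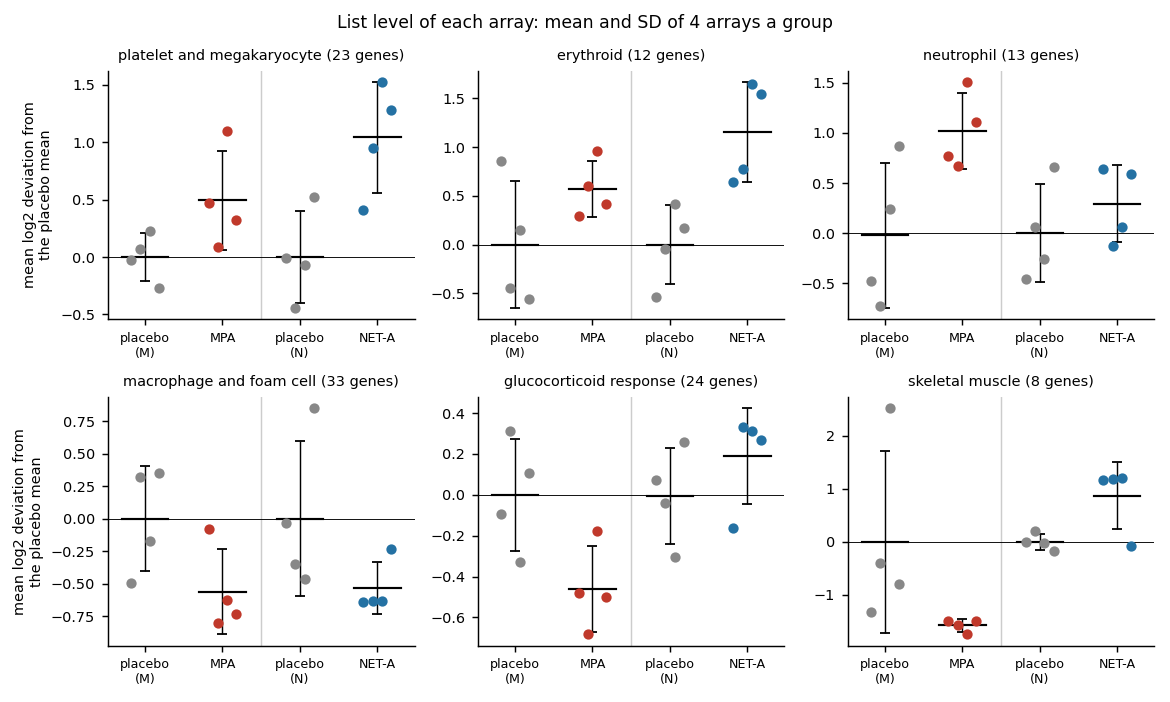
Mean log2 deviation from the placebo mean of the experiment (vertical axis) of the genes of 6 lists, array by array in the 4 groups. Points are arrays and bars are mean ± SD of 4 arrays; mean levels of platelet and erythroid genes are higher and of macrophage genes lower in both treated groups, and those of glucocorticoid-response and skeletal muscle genes differ in opposite directions.

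Most macrophage and foam cell genes had negative differences in both experiments. Of 33 tested, 32 were lower in both, against 26.5% of all genes, and 19 had an unadjusted p under 0.05, against 3.72%. No gene of the list passed after adjustment, and 0 had an unadjusted p under 0.05 in each experiment, against 0.186% of all genes. The median was -0.59, with -0.55 under MPA and -0.56 under NET-A, and it stayed between -0.72 and -0.44 over the 33 alternatives. The mean level of the list, treated minus placebo, differed by -0.77 to -0.28 on the 5 slides.

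Among them Lgals3, a lectin of activated macrophages, differed by -0.81 ± 0.23 over 15 arrays (limma adjusted p = 0.438). Mmp12, the macrophage elastase, was at 0.28, 1.25, 1.08 and 0.48 for placebo and 0.21, -0.61, -0.48 and 0.16 under MPA. It was at -0.66, -0.68, -0.83 and 1.00 for placebo and -1.54, -0.50, -1.26 and -0.99 under NET-A. MPA arrays were apart from placebo, and in the NET-A experiment NET-A replicate 2 overlapped. Trem2, a lipid-sensing receptor of foam cells, differed by -0.76 ± 0.25, Adgre1, a surface antigen of macrophages, by -0.65 ± 0.22, and Cd68, a lysosomal macrophage marker, by -0.63 ± 0.24.

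Genes of cholesterol handling varied within this group. Abcg1, an efflux pump, differed by -0.72 ± 0.25 and Msr1, a scavenger receptor, by -0.60 ± 0.25, while Abca1, another efflux pump, differed by -0.19 ± 0.12 and Cd36, a scavenger receptor also of other cells, by -0.10 ± 0.25. The macrophage list level was -0.49, 0.32, -0.17 and 0.35 on placebo and -0.08, -0.80, -0.63 and -0.74 on MPA arrays. It was -0.03, -0.35, -0.47 and 0.85 on placebo and -0.64, -0.63, -0.64 and -0.24 on NET-A arrays. Groups overlapped in both experiments through MPA replicate 1, NET-A replicate 4 and the lowest placebo arrays.

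Of 30 adhesion, chemokine and cytokine genes tested, 23 were lower in both, against 26.5% of all genes, 1 was higher in both and 6 were opposite. An unadjusted p under 0.05 was reached by 10, against 3.72%, and no gene passed after adjustment. The median was -0.51 (-0.32 under MPA and -0.56 under NET-A). The mean level of the list, treated minus placebo, differed by 0.13 on slide 1 and by -0.92 to -0.50 on the other slides. Vcam1, on which leukocytes adhere, was at 3.19, 3.56, 3.15 and 3.63 for placebo and 3.16, 2.70 and 2.70 on the 3 MPA arrays measured. It was at 3.90, 3.71, 3.60 and 4.53 for placebo and 3.15, 3.01, 2.86 and 3.50 under NET-A, where the groups were apart. The shared difference was -0.65 ± 0.16 (limma adjusted p = 0.319).

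Il6, an inflammatory cytokine, differed by -2.27 ± 0.60, and Cxcl1, which attracts neutrophils, by -1.22 ± 0.32. Ccl2, which attracts monocytes, differed by -0.88 ± 0.35, and its receptor Ccr2 by -0.74 ± 0.27, the latter at -0.30 under MPA and -1.17 under NET-A. The estimates for Il6 spread widely, from -0.13 on slide 3 to -4.61 on slide 2. In contrast Icam1 differed by -0.07 ± 0.15, Selp by -0.19 ± 0.14, and Il1b by 1.04 under MPA and -0.37 under NET-A.

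The lists of the wall, matrix, complement and cell cycle had medians nearer 0, and none of their genes passed. Among all genes 26.5% were lower in both, 23% higher in both and 50.4% opposite. Of 31 extracellular matrix genes 18 were lower in both, with a median of -0.17; Lum, a collagen-binding proteoglycan, differed by -0.60 ± 0.21 and Fn1, fibronectin, by -0.33 ± 0.12. Of 22 endothelial genes 13 were higher in both, with a median of 0.13. Of 19 contractile smooth muscle genes 14 had opposite directions and the median was 0.03. Of 20 complement genes 14 were lower in both, led by Cfi, the factor that cleaves complement fragments, at -0.85 ± 0.20. Of 19 cell cycle genes 13 were lower in both, with a median of -0.20, while Ube2c, a ubiquitin enzyme of mitosis, differed by 0.58 ± 0.15. Of 26 immediate early and heat shock genes 11 were lower in both, 1 higher in both and 14 opposite. The list had medians of -0.38 under MPA and -0.01 under NET-A. Its heat shock genes Hsph1 and Hspa8 differed by -0.66 ± 0.16 and -0.54 ± 0.15.

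The receptors through which progestins act were measured too, and none passed. Pgr, the progesterone receptor, was at -3.13 to -1.88 for placebo and -2.76 to -1.46 under MPA, and at -3.67 to -3.10 for placebo and -3.61 to -2.62 under NET-A; it differed by 0.22 ± 0.21. Esr1, an estrogen receptor, differed by 0.46 ± 0.16 (limma adjusted p = 0.545), with 0.40 under MPA and 0.52 under NET-A. Nr3c1, the glucocorticoid receptor, differed by 0.06 ± 0.10. Nr3c2, the mineralocorticoid receptor, was at 1.15 under MPA and -0.32 under NET-A, a difference of 1.47 (95% confidence interval 0.59 to 2.35; limma adjusted p = 0.379). The membrane-associated Pgrmc1, Pgrmc2, Paqr7 and Nenf differed by 0.04, 0.06, 0.01 and -0.03.

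Of all genes, 50.4% were opposite in the 2 experiments. Among genes that steroid receptors are known to control, the androgen-response list was near that share. The progestin target and glucocorticoid-response lists were above it. Of 16 androgen-response genes 8 were opposite, with medians of -0.27 under MPA and 0.09 under NET-A. Of 13 progestin target genes 9 were opposite, and the median was -0.16 under MPA and 0.41 under NET-A. Of 24 glucocorticoid-response genes 19 were opposite. Under NET-A 17 of the 24 were higher, against 46.8% of all genes, and under MPA 2 were higher, against 49.7%. The medians were -0.48 under MPA and 0.26 under NET-A. Tsc22d3, the leucine zipper protein induced by glucocorticoids, differed by -1.17 under MPA and 0.57 under NET-A. Fkbp5, a receptor co-chaperone, differed by -0.90 and 0.94, and Sgk1, a kinase induced by corticosteroids, by -0.85 and 0.50. For Sgk1 the difference between the progestins was -1.35 (95% confidence interval -2.06 to -0.64; limma adjusted p = 0.349). The shared difference of these 3 genes was -0.30 ± 0.35, 0.02 ± 0.40 and -0.17 ± 0.16.

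Skeletal muscle genes were opposite in 8 of 8, with medians of -1.37 under MPA and 1.01 under NET-A. The list level was -1.31, -0.40, 2.52 and -0.80 on placebo and -1.49, -1.56, -1.74 and -1.50 on MPA arrays. It was 0.00, 0.20, -0.02 and -0.18 on placebo and 1.17, 1.19, 1.21 and -0.08 on NET-A arrays. Placebo replicate 3 of the MPA experiment and NET-A replicates 1 to 3 were high, and Ckm, Myh4 and Tnnt3 were above background on only 9 or 10 arrays and were not tested. The part of muscle in the shared differences was not tested.

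**Figure D5:**
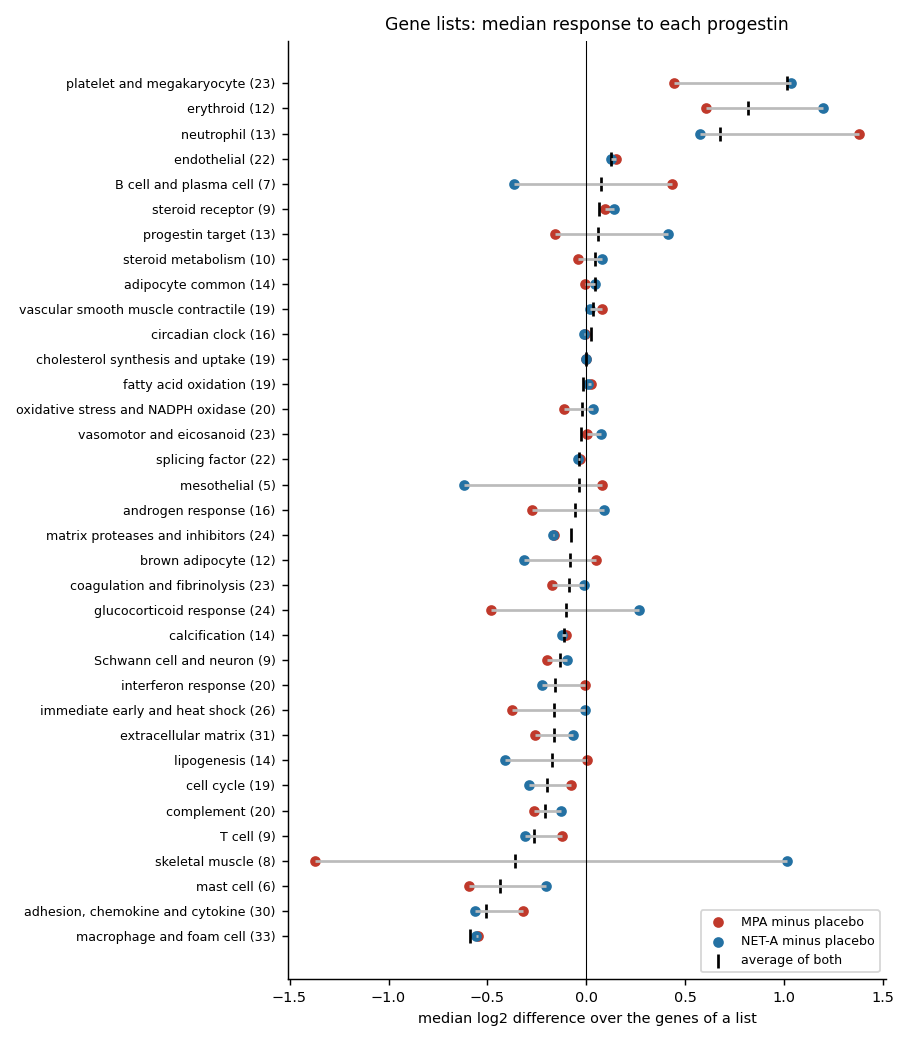
Median log2 difference (horizontal axis) over the tested genes of each of 35 lists (vertical axis, number tested in brackets): MPA in red, NET-A in blue and their average as a black tick. Platelet, erythroid and neutrophil medians are right of 0 and macrophage and adhesion medians left of 0 for both progestins. The mean neutrophil level differed by only 0.006 and 0.033 on slides 4 and 5 of the NET-A experiment. Glucocorticoid-response, progestin target and skeletal muscle medians lie on opposite sides.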

How the data were processed

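Total RNA of 16 samples of mouse aorta (100 ng each, per the labels' protocols) was labelled with Cy3 and read on single-colour Agilent arrays annotated on mm9. Per the file headers, the deposited spot intensity is the processed signal of Feature Extraction 10.7.1.1 (MPA experiment) or 11.0.1.1 (NET-A experiment), after background subtraction and without normalization between arrays. The authors' deposited table of log2 values served as an alternative; the steps that made it are not known from the labels or headers.

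Outlier-flagged spots were left out (1802 probe values, 0.274%); no spot was saturated. The log2 intensity minus each array's 75th percentile was averaged per probe, and a gene took its brightest probe over 16 arrays. Of 41174 probes, 26795 were named by RefSeq accession, 5122 by current symbol, 929 by a synonym and 8328 by the array. Genes were fitted with limma 3.58.1 in R 4.3.3 (lmFit and eBayes, 5 slides as fixed block, 9 residual degrees of freedom, two-sided, Benjamini-Hochberg over all 15057 genes). Slide coincides with scan. Values missing for a gene were not imputed; 722 genes lacked at least 1 array. The fit was also run on simulated data with the same spread on every array and equal changes in both experiments. That run checks the calculation and cannot show how the fit performs on these arrays. The members and lists were chosen with earlier results of these data known. Lists are described without a set test, since their genes are not independent samples.

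Genes were named by rule: the 15 higher and 15 lower with the smallest p and the same direction; those apart in both experiments among the 100 smallest p; up to 4 per list; all receptors; and the 6 most unequal between progestins among the smallest shared p. Further list members named beside them were chosen for their known role after their values were seen. The alternatives varied the block, the background correction, the scaling, the filter, the probe rule, the weights and single arrays. The number of arrays limits the precision. Some genes that these rules name are not reported here.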

Additional observations from a re-analysis of the deposited data

Results flagged for a closer look

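A single array stood apart from the other 3 of its group, by Dixon's test, in 10 of the 140 groups examined. That test is at the 95% level, so chance flags about 5% of groups. Alox12 stood at 0.79 on placebo replicate 3 of the MPA experiment, with the other placebo arrays at 0.12 to 0.20, and Lox at 0.92 on that array, with the others at 1.30 to 1.31. Retnlg stood at -1.89 on placebo replicate 4 of the NET-A experiment, against -3.47 to -3.23, and Eif1a at 1.70 on that array, against 1.17 to 1.26. On placebo replicate 2 of the NET-A experiment Pak6 stood at 1.2, against -0.16 to 0.03, and Nrgn at -0.46, against 0.08 to 0.12. Nrgn was also high on MPA replicate 3, at 3.20 against 1.97 to 2.04. On NET-A replicate 3 Jpt2 stood at -1.65, against -1.32 to -1.26, and Gpm6b at -0.51 with the others at -0.35. The level of the macrophage and foam cell list on NET-A replicate 4 was -0.24, against -0.64 to -0.63 on the other NET-A arrays.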

How the results depend on the processing

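The 33 genes rerun under the alternatives (the 15 higher, the 15 lower, Nrgn, Chl1 and Zfp469) kept their direction in each that gave them a value, and the counts moved. Of genes that rose, 4 in the fit reported, there were 0 without a slide block (smallest adjusted p 0.0696), 0 with slide as a random block (0.0514), 0 with normexp (0.0629), 0 without a filter (0.0567), 2 with the percentile over always-detected probes and 2 with every probe tested for itself. Array weights gave 45 higher, 27 lower and 256 with both p-values under 0.05; without the dim MPA replicate 2, added after seeing the data, they gave 39, 18 and 267. Weights ran from 0.166 to 5.83. Of genes that fell, 1 was counted with quantile normalization within each experiment and 1 in the authors' deposited table, Olr1 in both. Leaving out arrays in turn gave 0 to 4 higher, 0 to 1 lower and 40 to 129 with both p-values under 0.05, against 73. Normexp used the median spot signal, since the mean was not in the files of the NET-A experiment. With the replicate block in place of the slide there were 8 higher, 1 lower and 86 with both p-values under 0.05. After the group mean of each gene was subtracted, same-numbered treated and placebo arrays correlated by -0.235 to 0.245. These correlations cannot settle whether the numbers pair the samples, and the labels do not say. Over up to 33 alternatives for each of the 33 genes, calls were lost in 67 cases and gained in 55. These tallies count the same fit more than once, since leaving out either array of slide 3, or either of slide 4, gives the same fit. A list median was counted as moved when it shifted by more than the SD of the list level over the placebo arrays of the MPA experiment. That held for 4 lists, in 11 cases. Dim genes such as Olr1 and Apoc4 are limited by signal over background, and the cause of the moves was not tested.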
